A study of Mus musculus with 14 samples.

Results

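The genes described here are the zinc finger protein (Zfp) genes of mouse natural killer (NK) cells. They were taken by a rule on names, every gene symbol of the NK count table that begins with Zfp followed by a digit. The family was chosen with earlier results of these data known. The rule found 244 members among 10210 listed genes. The data are bulk 3' end RNA sequencing of sorted cells from BALB/c mice, given as raw counts per gene. NK cells came from spleens of healthy mice (3 libraries), from spleens of mice bearing a 4T1 tumour (4 libraries) and from 4T1 tumours (4 libraries), and 3 libraries of sCAFs, a kind of cancer-associated fibroblast, came from 4T1 tumours. 4T1 is a transplantable breast carcinoma line of BALB/c origin, and the series uses it to model the triple-negative disease. The protocol gives 8-week-old female BALB/c mice and a graft of 100000 4T1 cells carrying green fluorescent protein (GFP) in a mammary fat pad. No other allele or agent is named for any group. The NK sort kept cells with CD45 and NKp46 that lacked CD3, CD14, CD31, EPCAM and GFP, and the sCAF sort kept cells that lacked PDPN, CD31, CD45, GFP and EPCAM. Tumours were digested with collagenase A and DNase for 20 min at 37 °C, whereas spleens were crushed and treated on ice, so the effect of the tumour and that of the digestion cannot be told apart in any comparison with tumour NK cells. The labels call the replicates independent without saying whether each is 1 mouse, so p-values measure the spread between these samples.

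A zinc finger is a short protein fold held together by a zinc ion. Most Zfp genes encode chains of C2H2 fingers that read DNA, and the largest group among them carries a KRAB domain, which recruits the corepressor Trim28 (KAP1) and through it the histone methyltransferase Setdb1. KRAB proteins are known for silencing retroelements and imprinted loci. The Zfp36 family shares the name but not the fold or the role: its members carry CCCH fingers, bind AU-rich elements of messenger RNA and bring the CCR4-NOT deadenylase to them, so that the RNA is degraded. In lymphocytes and macrophages the Zfp36 family is known for limiting cytokine messages, and Zfp36 (tristetraprolin) is itself induced quickly by stimulation.

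By a protein profile of the KRAB domain, 133 members were KRAB-type and 106 were not, 3 were the Zfp36 family, and 2 (Zfp267 and Zfp862-ps) could not be classified. Another source may class genes with a divergent or SCAN-linked domain, such as Zfp263, otherwise, and no count by class below allows for that. KRAB-type members had a median of 12 C2H2 fingers and the others 7. Chromosome 7 held 62 members, 36 of them KRAB-type, chromosome 17 held 33 and chromosome 13 held 26. Counts were low: the median member had a mean of 10.2 counts per library in the KRAB-type class and 24.6 in the non-KRAB class, and 31 members (3 of the Zfp36 family, 4 KRAB-type, 24 non-KRAB) reached a mean of 50 counts, called well counted here. A filter on low counts left 173 members to test (80 KRAB-type, 89 non-KRAB, the 3 Zfp36 genes and 1 unclassified) among 8471 genes, and 71 members did not pass it. Because a member can pass the filter through the group in which it is high, counts over the 173 do not stand for all 244.

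Library totals ran from 559688 to 1966963 counts, and 3 counts, the floor used here, came to between 1.54 and 4.62 CPM (counts scaled to 1e+06 per library). Replicates of a group correlated with r between 0.916 and 0.978. The 7 spleen libraries fell into 2 sides along the first principal component of the group-centred values, which took 59.99% of the variance. Healthy replicate 1 and tumour-bearing replicates 1 and 2 lay on side A, and healthy replicates 2 and 3 and tumour-bearing replicates 3 and 4 on side B. The summed level of 10 NK markers was 19810 to 24780 CPM in tumour libraries, 27230 to 30450 in those of tumour-bearing spleens and 27640 to 28820 in those of healthy spleens, and further sums are given in this order. Of other cell types, 7 of 10 macrophage and monocyte markers were listed and summed to 39.4 to 239 CPM, 16.8 to 28.3 and 9.25 to 24.1, and 3 of 6 neutrophil markers to 59.8 to 158, 0.723 to 11.2 and 0.535 to 7.71. For 2 of 6 carcinoma markers the sums were 27.7 to 54.9, 0 to 2.79 and 0 to 3.08. Of 4 endothelial markers only Pecam1 was listed, at 139 to 202, 74.8 to 94.2 and 41.6 to 80.9, so no other gene speaks for endothelial cells. Sums for 3 of 6 T cell markers (Cd3d, Cd3g and Cd4) were 64.7 to 106, 99.3 to 149 and 43.2 to 79.2 CPM, the tumour range overlapping both others. For 2 of 7 fibroblast markers they were 2.90 to 21.3, 3.05 to 11.7 and 4.95 to 12.8, and for 1 of 5 B cell markers 1.45 to 3.80, 3.91 to 6.10 and 3.21 to 9.25. The other markers of these lists, among them Adgre1, Csf3r, Ly6g, Krt8, Cdh5, Cd3e and Col1a1, were not in the NK count table. Of 4 dendritic cell markers and 4 erythroid markers, 0 were in it, so these cells could not be looked for. The part of these cells in the results below was not tested. In such bulk samples, fewer cells of a type and less RNA per cell cannot be told apart.

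The 3 genes of the Zfp36 family were all higher in tumour NK cells than in either kind of spleen NK cell, in every library, by 2.18- to 3.85-fold against tumour-bearing spleens. All 3 were called higher in both comparisons, where 15.8% of all genes tested were called higher against tumour-bearing spleens and 16.5% against healthy spleens. Together they took 0.0816 to 0.102% of all counts in tumour libraries, 0.0235 to 0.0444% in tumour-bearing spleens and 0.0241 to 0.0425% in healthy spleens. The sequences that tie the family to its own kind of target are shown here because each of the 3 messages carries them: the AU-rich heptamer that the CCCH fingers read, 3 times in each 3' untranslated region. The capitals mark the heptamer TATTTAT, and the copy nearest the stop codon is given for each gene, as read from GRCm38 (the mm10 build), 5' to 3' on the minus strand.
Zfp36, chr7:28376967-28376993: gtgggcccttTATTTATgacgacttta
Zfp36l1, chr12:80108423-80108449: tatcaaaacgTATTTATtgccaaacta
Zfp36l2, chr17:84184915-84184941: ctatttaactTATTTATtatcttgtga
Over whole 3' untranslated regions, at least 1 heptamer occurred in 27.4% and at least 3 in 3.25% of 9595 listed genes with such a region. Among the 2825 whose region was as long as those of the family (774 to 1835 bases), the shares were 28% and 2.12%, and among 241 Zfp genes 33.2% and 6.64%. A match is a description of the letters and no measure of binding.

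Zfp36 lies on the minus strand at chr7:28376784-28380253. It was counted at 134, 159 and 139 CPM in healthy spleens, at 152, 165, 211 and 144 CPM in tumour-bearing spleens and at 469, 326, 302 and 370 CPM in tumours. The 4 tumour libraries were above all 7 spleen libraries, and the kinds of spleen overlapped. The log2 fold change was 1.12 against tumour-bearing spleens (SE 0.156, adjusted p = 1.66e-05 by edgeR's quasi-likelihood test with Benjamini-Hochberg adjustment over all 8471 genes, as for every adjusted p below) and 1.34 against healthy spleens (SE 0.176, adjusted p = 8.53e-06). Between the kinds of spleen it was 0.22 (adjusted p = 0.724). The promoter is printed because Zfp36 rose beside early-response genes. RefSeq (GRCm38.p6) places the 250 bases before its start at chr7:28379229-28379478, minus strand. They hold a CArG box, the site of serum response factor, in capitals at 58 to 49 bases before the start. This window lies inside the gene span given above, which follows GENCODE M21, so positions before the start hold for the RefSeq start alone.
Zfp36 promoter: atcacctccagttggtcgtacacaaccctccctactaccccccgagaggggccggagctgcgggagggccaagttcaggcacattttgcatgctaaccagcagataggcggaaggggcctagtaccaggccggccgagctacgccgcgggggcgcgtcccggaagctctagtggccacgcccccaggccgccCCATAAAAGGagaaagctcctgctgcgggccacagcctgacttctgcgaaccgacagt
Searched on both strands, a CArG box was in 482 of 32851 RefSeq promoters of this length (1.47%) and in 2 of 251 promoters of 206 Zfp genes. The AP-1 site TGACTCA was in 4.46% of all promoters and in 6 of the Zfp promoters, and the Egr site GCGTGGGC in 1.37% and 3. Neither of these was in the window shown. The same window of Zfp36l1, which rose most in the family, held no CArG box, AP-1 site or Egr site. A match is no measure of binding, and the part of the CArG box in the rise of Zfp36 was not tested.

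Zfp36l1 (chr12:80107754-80113013, minus strand) rose most in the family. It was counted at 168, 79.7 and 68.5 CPM in healthy spleens, at 209, 150, 73.1 and 57.1 CPM in tumour-bearing spleens and at 470, 514, 489 and 399 CPM in tumours. All tumour libraries were above all spleen libraries, and within each kind of spleen the side A libraries were the highest. The log2 fold change was 1.94 against tumour-bearing spleens (SE 0.415, adjusted p = 0.00689) and 2.21 against healthy spleens (SE 0.479, adjusted p = 0.00699). An annotated transcript, Gm26669, overlaps it on the other strand, and whether counting used strand is not given in the sources used here, so their reads may not be separable.

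Zfp36l2 (chr17:84183931-84187947, minus strand) was the least abundant of the 3. It was counted at 64.7, 40.1 and 33.0 CPM in healthy spleens, at 75.5, 61.4, 24.7 and 42.7 CPM in tumour-bearing spleens and at 166, 139, 110 and 150 CPM in tumours. The tumour libraries were above all spleen libraries. The log2 fold change was 1.48 against tumour-bearing spleens (SE 0.292, adjusted p = 0.00223) and 1.68 against healthy spleens (SE 0.339, adjusted p = 0.00245). Zfp36l2 was also the gene among the members whose profile over the 11 libraries was most like that of Zfp36l1 (Pearson r = 0.951), a description over libraries that share the tumour difference and the side difference.

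**Figure D1:**
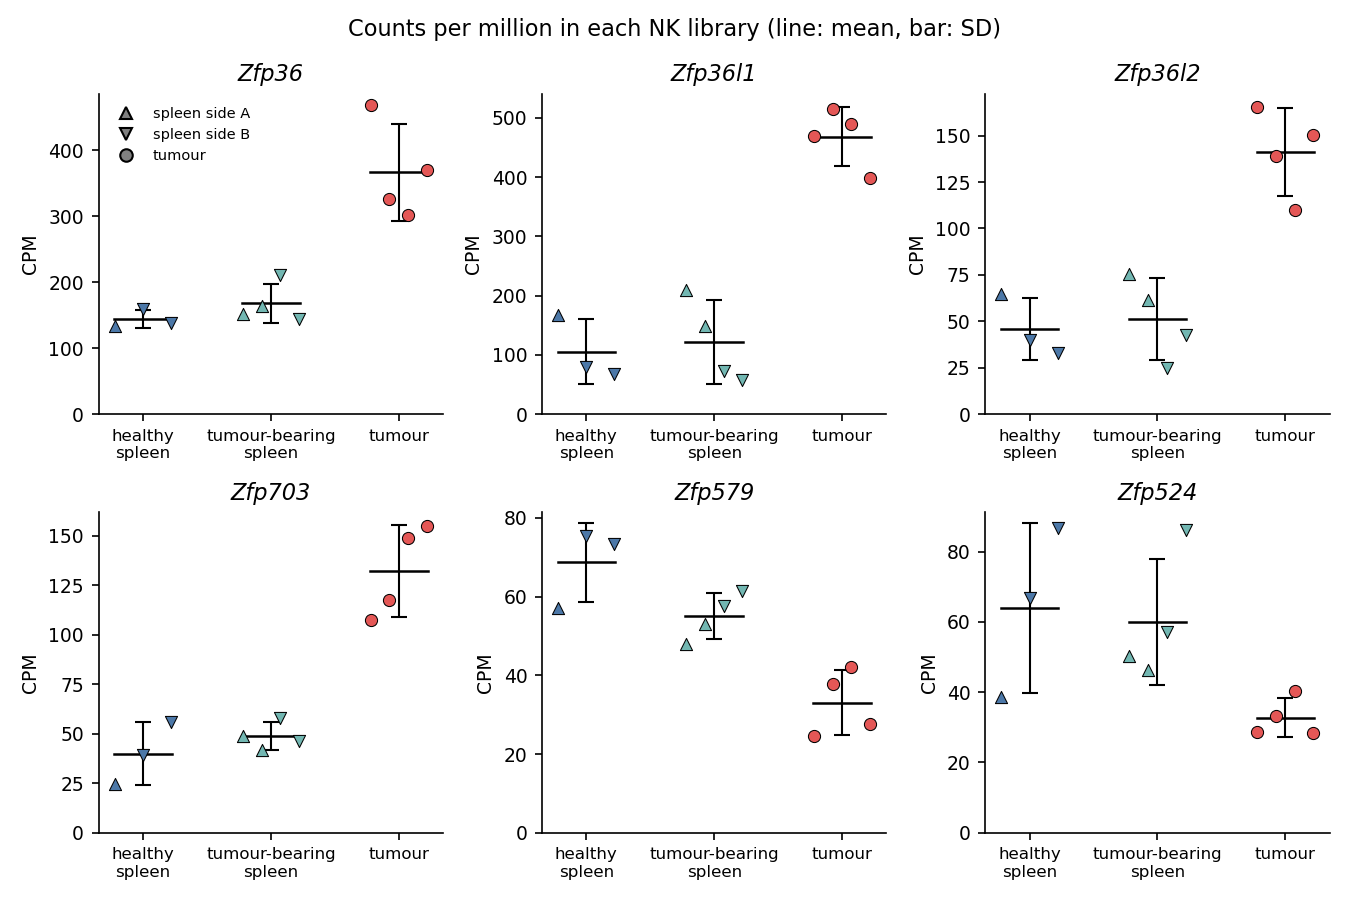
CPM (vertical axis) of 6 well-counted Zfp genes in each of the 11 NK libraries, by group; upward triangles are spleen side A, downward triangles spleen side B, circles tumour, the line is the mean and the bar the SD. The 4 tumour libraries lie above all spleen libraries for Zfp36, Zfp36l1, Zfp36l2 and Zfp703 and below all of them for Zfp579, while for Zfp524 1 healthy library overlaps them.

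Genes that act with the Zfp36 family, from a list of 39 messages of the decay machinery and its regulators, split in both directions. In tumour NK cells 8 of the 34 tested were higher and 6 lower than in those of tumour-bearing spleens, with a median log2 fold change of -0.01, where 15.8% and 13.2% of all genes were called. The higher ones were led by Btg1 (58.4 ± 6.11 against 8.39 ± 1.41 CPM, SD, n = 4 and 4, log2 fold change 2.78) and Zc3h12a, the endonuclease Regnase-1 (417 ± 62.7 against 62.5 ± 9.90 CPM, 2.73). Btg1, Btg2 (1.21) and Tob1 (1.49) encode adaptors of the deadenylase, and Mapkapk2 (0.67) the kinase that phosphorylates tristetraprolin. The lower ones were Cnot3 (-0.62), Edc3 (-0.59) and 4 exosome subunits, Exosc1, Exosc4, Exosc7 and Exosc10 (-0.58 to -0.82). Against healthy spleens the counts were 8 and 6 as well, where 16.5% and 14% of all genes were called, and none of the 34 was called between the spleens, where 1.23% and 0.354% were.

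Of 21 tested messages known as AU-rich targets of the family, 15 were higher and 2 lower in tumour NK cells, with a median log2 fold change of 1.54, where 15.8% and 13.2% of all genes were called. Nfkbia, the inhibitor of NF-κB, rose from 357 ± 30.4 to 2426 ± 108 CPM (SD, n = 4 and 4, log2 fold change 2.77). Tnf rose from 21.7 ± 8.91 to 64.0 ± 13.8 CPM (1.55) and Csf2, which encodes GM-CSF, from 11.2 ± 4.83 to 49.3 ± 11.1 CPM (2.15). Ccl3, a chemokine, fell from 1342 ± 215 to 548 ± 58.4 CPM (-1.29) and Ccnd3, a cyclin, from 946 ± 63.9 to 536 ± 83.2 CPM (-0.82). Against healthy spleens 18 were higher and 1 lower, with a median of 2.21, where 16.5% and 14% of all genes were called. Between the spleens 3 were higher and none lower, where 1.23% and 0.354% were. The target list was drawn up with earlier results of these data known, as were the lists of decay, handling, KRAB partner and role genes. Counts over these lists are therefore descriptions, and the shares of all genes beside them are no test.

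Genes known to be induced by tissue handling moved with these. In tumour NK cells 14 of the 17 tested were higher and 1 (Hsph1, log2 fold change -1.19) lower than in those of tumour-bearing spleens, with a median log2 fold change of 1.84, where 15.8% and 13.2% of all genes were called. Fosb stood at 492 ± 59.5 against 13.1 ± 8.58 CPM (SD, n = 4 and 4, 5.17) and Junb at 2983 ± 524 against 522 ± 178 CPM (2.51). Of this list, 3 genes (Fos, Ier3, Dusp1) are also on the target list and 1 (Btg2) on the decay list. Against healthy spleens 14 were higher and none lower (16.5% and 14% of all genes), and between the spleens 3 were higher and none lower (1.23% and 0.354%). The part of handling in the rise of the Zfp36 family was not tested.

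Outside the Zfp36 family, 9 of 170 tested Zfp genes were called higher and 25 lower in tumour NK cells than in those of tumour-bearing spleens. Over all 173, the Zfp36 genes included, 12 were higher and 25 lower, which is 6.94% and 14.5%, where over all 8471 genes 15.8% were called higher and 13.2% lower. The median log2 fold change was -0.19, against 0.00 over all genes tested. The KRAB-type class had 2 higher and 9 lower of 80 (median -0.25), and the non-KRAB class 7 higher and 16 lower of 89 (median -0.09). The share called lower was thus near that of all genes, and no test of the class against other genes was made. Without the filter on low counts, 13 of 244 were higher and 34 lower, with a median of -0.30. Of all 10210 genes, 1390 were higher and 1248 lower in that fit. The tumour libraries lay above all those of tumour-bearing spleens for 13 members and below all of them for 25, where 16.5% and 13.3% of all genes did so.

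Depth and scaling bear on these counts. The tested members had a median of 22.8 mean counts per library against 51.5 for all genes tested. Among the 31 well-counted members, 7 were higher and 5 lower (22.6% and 16.1%) with a median of 0.15, against 18.1% and 15.6% of the 4316 genes with as many counts. Under upper-quartile scaling, which moved the median of all genes to -0.10, 10 members were higher and 31 lower, with a median of -0.29. Of all 8471 genes, 1091 were higher and 1530 lower under that scaling. In the KRAB-type class the count of lower members was 15 (median -0.44) with an offset for GC content and length, 5 with DESeq2 and 18 of 133 without the filter, and the count of higher members was 2 in each. Over all genes, in the same order, 1198, 952 and 1248 were lower and 1466, 1212 and 1390 higher.

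Against healthy spleens, 9 of the 173 were higher and 37 lower, where 16.5% and 14% of all genes were called, and the median log2 fold change was -0.33 against 0.02. In the KRAB-type class 1 was higher and 18 lower of 80 (median -0.49), and in the non-KRAB class 5 and 19 of 89 (median -0.24). With upper-quartile scaling 5 were higher and 48 lower, 1 of the higher being non-KRAB, where 1154 and 1569 of all 8471 genes were called. Lower KRAB-type members numbered 27 with the offset for GC content and length, 11 with DESeq2 and 30 of 133 without the filter. Over all genes, in the same order, 1323, 1019 and 1347 were lower. With the replicate number as a block, 3 KRAB-type and 8 non-KRAB members were higher, where 1469 of all genes were. The count of higher members rested on single libraries: it was 19 without healthy replicate 1, and 5 without healthy replicate 2 or without tumour replicate 1. Both comparisons use the same 4 tumour libraries, so their calls are not separate evidence: 24 members were lower and 9 higher in both, 1 was lower against tumour-bearing spleens alone and 13 against healthy spleens alone. The same counts over all genes are not given here.

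**Figure D2:**
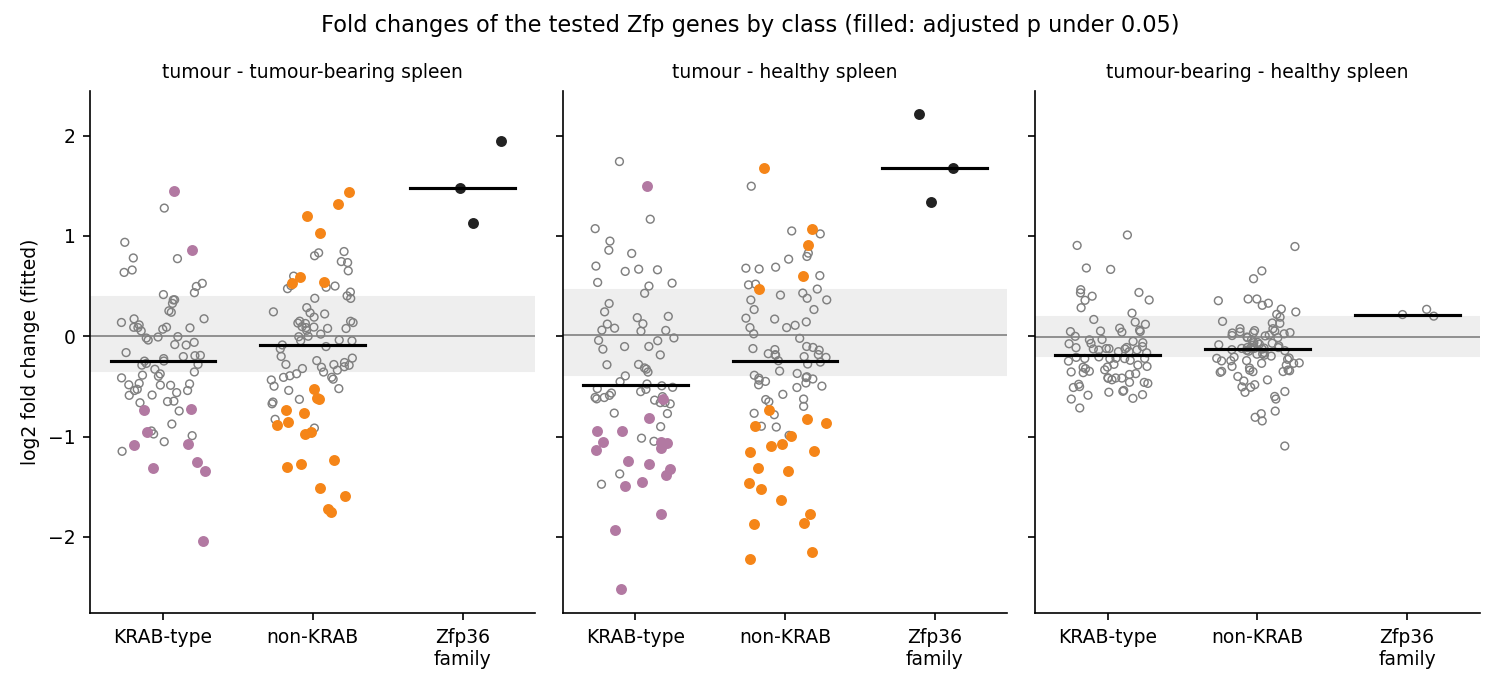
Fitted log2 fold change (vertical axis) of each tested Zfp gene in the 3 comparisons, by class; filled points have an adjusted p under 0.05, black lines are class medians, and the grey line and band are the median and the middle quartiles of all 8471 genes tested. The Zfp36 genes lie above the medians of both other classes in the tumour comparisons. Against tumour-bearing spleens Zfp36, at 1.12, lies below the highest single genes of both, Zfp1 at 1.45 and Zfp703 at 1.44, and no point is filled between the spleens.

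Among well-counted members outside the Zfp36 family, Zfp703 changed most. It encodes a transcriptional cofactor known from breast cancer, and no complete C2H2 finger was found in its protein by the pattern searched. Zfp703 (chr8:26977325-26981461, plus strand) was counted at 24.7, 39.1 and 56.1 CPM in healthy spleens, at 48.8, 41.9, 58.2 and 46.3 CPM in tumour-bearing spleens and at 107, 117, 149 and 155 CPM in tumours. The tumour libraries were above all spleen libraries. The log2 fold change was 1.44 against tumour-bearing spleens (SE 0.189, adjusted p = 8.64e-06) and 1.68 against healthy spleens (SE 0.218, adjusted p = 7.64e-06).

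Zfp512, with 3 C2H2 fingers, rose by less but evenly. It was counted at 67.8, 69.6 and 65.2 CPM in healthy spleens, at 71.7, 55.8, 62.3 and 60.0 CPM in tumour-bearing spleens and at 99.2, 97.1, 88.4 and 91.3 CPM in tumours. No tumour library overlapped the spleens. Against tumour-bearing spleens the log2 fold change was 0.59 (SE 0.135, adjusted p = 0.0026), and it was 0.47 against healthy spleens (SE 0.15, adjusted p = 0.0221). The call against healthy spleens was lost under upper-quartile scaling and without healthy replicate 2, healthy replicate 3 or tumour replicate 1 (adjusted p 0.0503 to 0.0808).

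Zfp664 and Zfp692 were called higher against tumour-bearing spleens by a narrow margin. Zfp664 stood at 58.6 ± 8.60 CPM in tumours against 40.7 ± 4.70 (SD, n = 4 and 4, log2 fold change 0.53, adjusted p = 0.0315). Zfp692 stood at 80.2 ± 21.9 against 54.7 ± 3.27 (0.54, adjusted p = 0.0304), with tumour replicates 1 and 2 at 100 and 97.1 CPM and replicate 4, at 55.1, inside the range of the spleens. Both calls were lost under upper-quartile scaling and against side A of the spleens alone, where the log2 fold changes were 0.52 and 0.49. They were also lost without tumour-bearing replicate 2, 3 or 4 or tumour replicate 1, without tumour replicate 4 for Zfp664 (adjusted p 0.0626 to 0.106) and without tumour replicate 2 for Zfp692 (0.0543 to 0.132).

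Well-counted members that fell in tumour NK cells were 5 non-KRAB genes with C2H2 fingers: Zfp524, Zfp579, Zfp513, Zfp771 and Zfp653. All 5 had between 52.2 and 68.0% GC in the last 500 bases of the transcript, where the median of all genes tested was 44.8%. This was not particular to them. Zfp703, which rose, had 53.4%, and the well-counted Zfp414, not called against tumour-bearing spleens (adjusted p = 0.154), had 58.4%. Zfp579 (chr7:4983483-4996158, minus strand) was counted at 57.0, 75.4 and 73.5 CPM in healthy spleens, at 48.0, 53.0, 57.7 and 61.5 CPM in tumour-bearing spleens and at 24.6, 37.7, 42.1 and 27.6 CPM in tumours. The tumour libraries were below all spleen libraries. The log2 fold change was -0.73 against tumour-bearing spleens (SE 0.188, adjusted p = 0.00595) and -1.07 against healthy spleens (SE 0.201, adjusted p = 0.000411).

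Zfp524 lies on the same chromosome at chr7:5014415-5018488, plus strand. It was counted at 38.5, 66.9 and 86.7 CPM in healthy spleens, at 50.3, 46.3, 57.1 and 86.1 CPM in tumour-bearing spleens and at 28.7, 33.3, 40.3 and 28.5 CPM in tumours. Healthy replicate 1 lay within the tumour range. The log2 fold change was -0.85 (SE 0.241, adjusted p = 0.0126) against tumour-bearing spleens, and the transcript Gm44973 overlaps the gene on the same strand.

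Of the other 3, Zfp513 stood at 39.8 ± 2.83 CPM in tumours and 60.8 ± 7.65 in tumour-bearing spleens (SD, n = 4 and 4, log2 fold change -0.62, adjusted p = 0.00985). Zfp771 stood at 37.4 ± 4.78 against 56.6 ± 11.7 CPM (-0.62, adjusted p = 0.0126), and its healthy libraries, at 77.1 to 82.5 CPM, were above both. Zfp653 stood at 29.9 ± 4.78 against 42.9 ± 6.19 CPM (-0.52, adjusted p = 0.042). Zfp524, Zfp513, Zfp771 and Zfp653 lost their call against side A of the spleens alone, where their log2 fold changes were -0.55, -0.48, -0.38 and -0.38, and Zfp579 kept it (-0.62). Zfp653 also lost it without any 1 of 6 libraries, all but tumour-bearing replicate 1 and tumour replicate 3 (adjusted p 0.0615 to 0.145), and Zfp771 without tumour-bearing replicate 3 (adjusted p = 0.0541).

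The largest falls were among members under 50 mean counts, and the next 6 genes were chosen after their values were seen. Zfp825, KRAB-type, was counted at 15.4, 19.3 and 18.2 CPM in healthy spleens, at 11.4, 11.7, 18.02 and 9.40 CPM in tumour-bearing spleens and at 1.64, 4.35, 3.01 and 3.80 CPM in tumours. The tumour libraries were below all spleen libraries, their levels were near the floor of 3 counts, and the fitted log2 fold change was -2.04 (SE 0.366, adjusted p = 0.000282). Zfp691 stood at 4.93 ± 1.14 CPM in tumours against 17.1 ± 3.77 in tumour-bearing spleens (SD, n = 4 and 4, -1.75), Zfp637 at 11.01 ± 2.52 against 31.8 ± 6.52 (-1.51) and Zfp553 at 16.8 ± 4.84 against 39.4 ± 5.33 (-1.30). All 4 were also lower against healthy spleens, by 1.52 to 2.52 on the log2 scale. A stretch of Zfp825 and of Zfp553 at least 100 bases long is at least 95% identical to another transcript, so their counts may be split.

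In the other direction, the KRAB-type gene Zfp1 was counted at 15.4, 11.8 and 9.08 CPM in healthy spleens, at 6.86, 11.2, 14.4 and 15.2 CPM in tumour-bearing spleens and at 23.8, 46.4, 34.9 and 29.5 CPM in tumours. All tumour libraries were above all spleen libraries, with a log2 fold change of 1.45 (SE 0.269, adjusted p = 0.000399). The other KRAB-type gene called higher, Zfp955b (33.3 ± 6.76 against 18.4 ± 5.43 CPM, 0.86), is 99.4% identical to Zfp955a over a part of its sequence, so the 2 may not be told apart.

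KRAB proteins act through Trim28 and its partners, of which 21 of 25 listed were tested. Trim28 itself stood at 202 ± 27.1 CPM in tumours and 180 ± 25.8 in tumour-bearing spleens (SD, n = 4 and 4, log2 fold change 0.17, adjusted p = 0.387). Setdb1 fell from 27.0 ± 0.970 to 15.3 ± 2.41 CPM (-0.82, adjusted p = 0.00586), Dnmt1, the maintenance DNA methyltransferase, from 93.0 ± 16.9 to 49.5 ± 8.29 CPM (-0.90, adjusted p = 0.00116), and Chd3 by 0.48 on the log2 scale. Chd4 (0.60) and Atf7ip (0.46), which stabilises Setdb1, were higher. In all 2 of the 21 were higher and 3 lower, with a median of -0.20, where 15.8% and 13.2% of all genes were called. Against healthy spleens 2 were higher and 4 lower, where 16.5% and 14% of all genes were called. Between the spleens 1 was higher and none lower, where 1.23% and 0.354% were.

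Most Zfp genes with a known role in lymphocytes or in the handling of RNA were not called. Of 11 tested regulators of lymphocytes and blood cells, none was called in any comparison of all libraries by edgeR. Of all genes, 15.8% were called higher and 13.2% lower against tumour-bearing spleens, and 16.5% and 14% against healthy spleens. Between the spleens the shares were 1.23% and 0.354%, and these shares apply to the role lists below as well. Without healthy replicate 1, Zfp91, Zfp131 and Zfp281 were called higher against healthy spleens (adjusted p 0.000546, 0.00413 and 0.0344) and Zfp827 lower (0.0263). Zfp91, a ubiquitin ligase that acts on the NF-κB-inducing kinase, was 49.3 to 66.7 CPM in tumours, 24.7 to 56.4 in tumour-bearing spleens and 18.2 to 84.8 in healthy spleens (log2 fold change 0.49 against tumour-bearing spleens, SE 0.43, adjusted p = 0.436). Zfp131 was 61.8 to 95.6 CPM in tumours and 26.04 to 63.3 in tumour-bearing spleens (log2 fold change 0.83, SE 0.351, adjusted p = 0.101, and 0.0274 or 0.0383 without healthy replicate 1 or 3). Zfp335, a regulator of T cell maturation, was 39.1 to 66.7 CPM in tumours and 58.0 to 103 in tumour-bearing spleens (-0.41, adjusted p = 0.16), and Pcif1 overlaps it on the other strand. Zfp292 was 40.9 to 44.9 CPM in tumours and 26.04 to 48.6 in tumour-bearing spleens (0.15, adjusted p = 0.589).

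Of 9 tested factors of RNA, ribosomes and chromosomes, none was called in any comparison either by edgeR, although Zfp207 was higher against healthy spleens without healthy replicate 1 (adjusted p = 0.0464), and Zfp326 was higher in both tumour comparisons without tumour replicate 3 or healthy replicate 3 (0.0198 to 0.0486). Zfp207 (BuGZ), a spindle protein and the third most abundant member by mean CPM after Zfp36l1 and Zfp36, was 217 to 229 CPM in tumours and 149 to 241 in tumour-bearing spleens (log2 fold change 0.23, SE 0.17, adjusted p = 0.326). Zfp598, the ubiquitin ligase that senses collided ribosomes, was 83.7 to 109 CPM in tumours and 77.0 to 98.4 in tumour-bearing spleens (0.14, SE 0.139, adjusted p = 0.494). Of 9 tested cofactors of transcription and chromatin, 2 were lower than in tumour-bearing spleens and none higher, where 13.2% and 15.8% of all genes were called. They were Zfp143, which binds promoters and chromatin loop anchors (10.7 ± 2.403 against 20.2 ± 5.71 CPM, SD, n = 4 and 4, log2 fold change -0.97, adjusted p = 0.0125), and Zfp507 (3.69 ± 2.28 against 9.52 ± 1.73 CPM, -1.28, adjusted p = 0.0246). Both lost the call against side A of the spleens alone, at log2 fold changes of -0.64 and -1.05, and Zfp507 also without tumour-bearing replicate 3 or 4 or tumour replicate 1 or 2 (adjusted p 0.0583 to 0.0811). Zfp451, a SUMO ligase, was higher against healthy spleens without healthy replicate 1 or tumour-bearing replicate 2 alone (0.0129 and 0.0497). Of the KRAB proteins known to silence retroelements or imprinted loci, 3 were tested and none was called: Zfp809, which silences murine leukaemia viruses, Zfp568 and Zfp445, which acts at imprinted loci. Zfp809 was 24.6 to 40.9 CPM in tumours and 22.4 to 34.6 in tumour-bearing spleens (0.09, SE 0.206, adjusted p = 0.782).

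Between the spleens of tumour-bearing and healthy mice, no Zfp gene was called in either direction by edgeR or by DESeq2, where edgeR called 1.23% of all genes higher and 0.354% lower. At an unadjusted p under 0.05 there were 12 of 173 members, against 951 of all 8471 genes. The median log2 fold change of the members was -0.14, against -0.00 over all genes. Of the 173 members 121 were negative (69.9%), where 50.7% of all genes were. Median values were -0.19 for KRAB-type and -0.13 for non-KRAB members. Without healthy replicate 1 the median over all members was -0.05. It was -0.25 over 178 members in a fit of the spleen libraries alone with the side as a block.

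The sides of the spleen libraries differed widely in this gene family. Because the sides were drawn from the same counts, these differences are descriptions, and Zfp942, Zfp677 and Zfp62 were chosen after their values were seen. The median log2 difference, side A minus side B, was 0.29 over 178 members tested in the spleens alone and -0.04 over all 8282 genes. It was 0.44 for KRAB-type and -0.02 for non-KRAB members. Zfp942, a KRAB-type gene, stood at 23.6 to 50.8 CPM in the 3 side A libraries and at 1.65 to 5.06 in the 4 of side B (log2 difference 3.37). Zfp677, also KRAB-type, stood at 17.3 to 32.4 against 1.45 to 5.78 CPM (3.19). Among well-counted genes, Zfp62 stood at 64.2 to 98.6 against 19.0 to 28.1 CPM (1.87), Zfp445 at 93.8 to 145 against 33.3 to 53.5 (1.496) and Zfp91 at 51.8 to 84.8 against 18.2 to 32.5 (1.35).

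The same difference ran through the Zfp36 family. Zfp36l1 was 150 to 209 CPM on side A and 57.1 to 79.7 on side B (log2 difference 1.34), and Zfp36l2 was 61.4 to 75.5 against 24.7 to 42.7 (0.97). Zfp36, at 134 to 165 against 139 to 211 CPM, differed little (-0.17). Zfp524 went the other way, at 38.5 to 50.3 against 57.1 to 86.7 CPM (-0.65).

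The difference followed base composition. Over members its Spearman correlation with the GC content of the last 500 bases of the transcript was -0.67 (n = 172 genes, which share all 7 libraries), and over all genes -0.61 (n = 8159). The median GC content of that stretch was 38.0% for tested KRAB-type members, 45.0% for non-KRAB members, 37.6% for the Zfp36 genes and 44.8% for all genes tested. The fold changes between tumour and tumour-bearing spleen NK cells had a correlation of -0.25 with GC content over members (n = 173) and -0.28 over all genes (n = 8343).

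**Figure D3:**
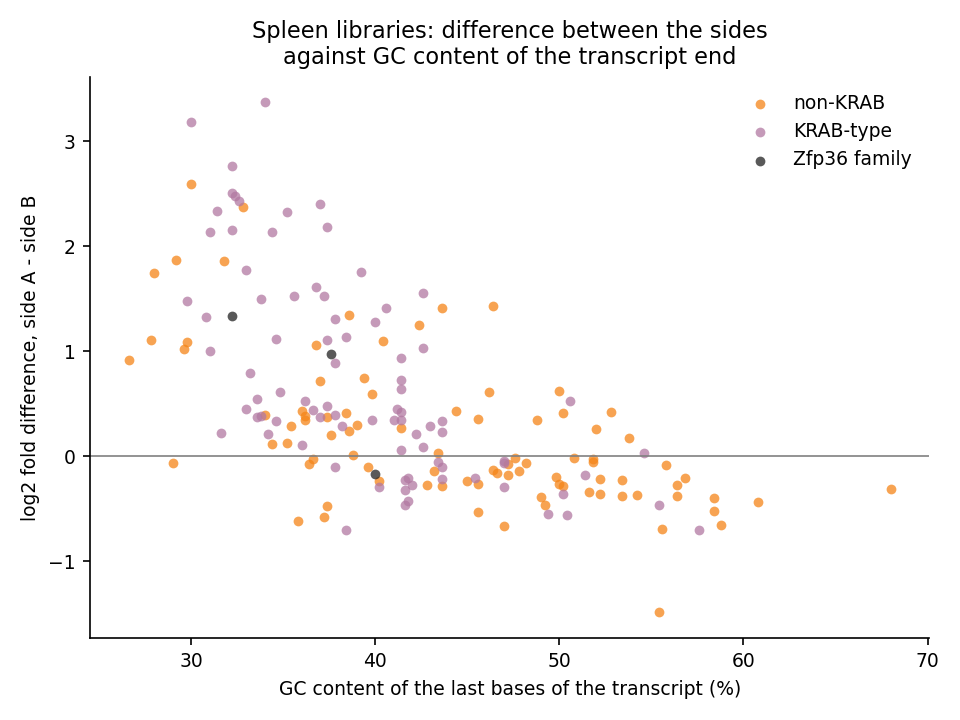
Log2 difference between the sides of the spleen libraries (side A minus side B, vertical axis) against the GC content of the last 500 bases of the transcript (percent, horizontal axis), 1 point per Zfp gene, by class. Members with a GC content near 30 to 35% lie mostly above 0, up to 3.37 for Zfp942, and those above 50% lie near or below 0.

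The level of the KRAB-type class in a library went with the side. Measured as the median over tested members of the log2 CPM minus each gene's own mean, it was 0.72 in healthy replicate 1 and 0.33 in both side A libraries of tumour-bearing spleens. On side B it was 0.03 and 0.12 in the healthy and -0.19 and -0.39 in the tumour-bearing libraries, and in tumours it was -0.20, 0.02, -0.11 and -0.17. Of the tumour libraries, 3 lay between the sides of the tumour-bearing spleens and replicate 1 within the range of side B. Over all genes tested, the Spearman correlation of these deviations with GC content was -0.264, -0.321, -0.119 and -0.137 in the tumour libraries. It was -0.269, -0.259 and -0.192 in the side A libraries and 0.265 to 0.512 on side B. By this measure all 4 tumour libraries had the sign of side A. The KRAB-type class took 0.119 to 0.163% of all counts in tumours, 0.112 to 0.196% in tumour-bearing spleens and 0.156 to 0.286% in healthy spleens.

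**Figure D4:**
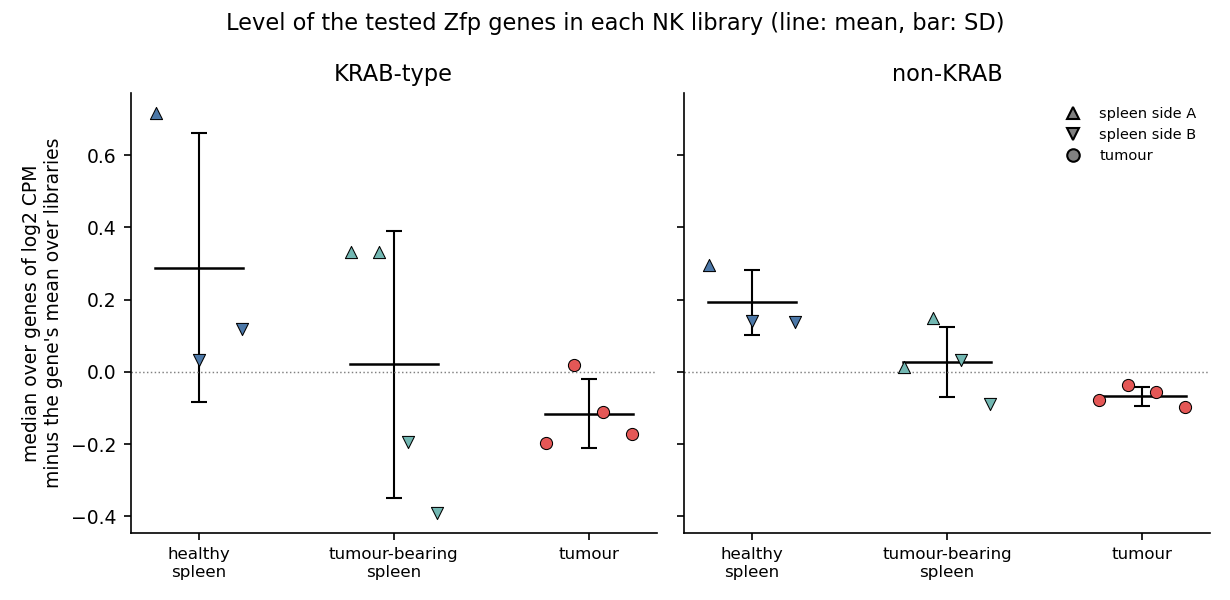
Median over the tested Zfp genes of log2 CPM minus the gene's mean over the 11 libraries (vertical axis), for KRAB-type (left) and non-KRAB members (right); upward triangles are spleen side A, downward triangles spleen side B, circles tumour, the line is the mean and the bar the SD. In the KRAB-type class the tumour-bearing spleen libraries separate by side, at 0.33 and at -0.19 and -0.39; of the tumour libraries, 3 lie between these and replicate 1, at -0.20, just below the higher side B library.

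With the side as a block in a fit of the 7 spleen libraries, 3 members were lower in tumour-bearing than in healthy spleens and none was higher, where 5.35% of all genes were called higher and 2.99% lower. Zfp871, a well-counted KRAB-type gene, stood at 92.5 CPM in healthy replicate 1 against 59.5 and 68.1 CPM in the tumour-bearing libraries of side A, and at 51.4 and 56.1 against 42.2 and 31.1 CPM on side B. It was lower in tumour-bearing spleens on both sides, with a log2 fold change of -0.52 (SE 0.156, adjusted p = 0.0323). The other members were Zfp950 (-0.71, SE 0.222, adjusted p = 0.0394) and Zfp397 (-1.26, SE 0.366, adjusted p = 0.0248), chosen after their values were seen. Side A holds 1 healthy library, so its part of this fit rests on that library. The side was itself drawn from the counts that the fit uses, so these adjusted p-values may understate the spread and are descriptions. In the same 7 libraries without the block, 0 of 178 members were called in either direction. Of all 8282 genes, 93 were then called higher and 21 lower.

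The comparison of tumour NK cells with tumour-bearing spleens was repeated within each side. The sides were drawn from the same counts, which takes out spread between the spleen replicates. Calls and SEs within a side are therefore descriptions. Against replicates 1 and 2 (side A), 12 of 166 members were higher and 24 lower, where 13.8% and 9.04% of all genes were called, and the median log2 fold change was -0.27. Against replicates 3 and 4 (side B), 39 of 154 were higher and 24 lower, where 22.4% and 18.5% of all genes were called, and the median was -3e-04. In the KRAB-type class the counts were 2 higher and 16 lower of 75 (median -0.48) on side A and 16 higher and 6 lower of 67 (median 0.04) on side B. In the non-KRAB class they were 7 and 8 of 86 and 20 and 18 of 83 (medians -0.14 and -0.07). The KRAB-type median was thus negative against side A and slightly positive against side B, over different numbers of members. The non-KRAB median was negative against both.

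Some members were called in the same direction against all tumour-bearing spleens and against each side alone. In all 3 fits 9 members were called higher: Zfp36, Zfp36l1, Zfp36l2, Zfp703, Zfp512, Zfp1, Zfp296, Zfp652 and Zfp672. Another 10 were called lower: Zfp553, Zfp579, Zfp3, Zfp35, Zfp637, Zfp646, Zfp688, Zfp691, Zfp825 and Zfp87. The 3 fits share the tumour libraries, the sides were drawn from the same counts, and these lists were drawn up after the values were seen. A call in all 3 fits is thus not separate evidence. The share of all genes that met the same rule is not given here, so the lengths of the lists have no reference. For Zfp36 the log2 fold changes were 1.204 on side A (SE 0.178) and 1.01 on side B (SE 0.184). For Zfp36l1 they were 1.38 and 2.80, and for Zfp36l2 1.04 and 2.06 (SE 0.173 and 0.185 for Zfp36l1, 0.186 and 0.221 for Zfp36l2); these differences between the fits were not tested. For Zfp703 they were 1.55 and 1.30. Well-counted members called higher against side B alone included Zfp62, Zfp91, Zfp131, Zfp207, Zfp445 and Zfp868. Their log2 fold changes were 1.92, 1.01, 1.37, 0.54, 1.01 and 0.85, and against side A 0.14, 0.09, 0.40, -0.05, -0.40 and -0.04. Members with fewer counts were called in this way too, among them Zfp53 (2.69 on side B and 0.54 on side A).

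**Figure D5:**
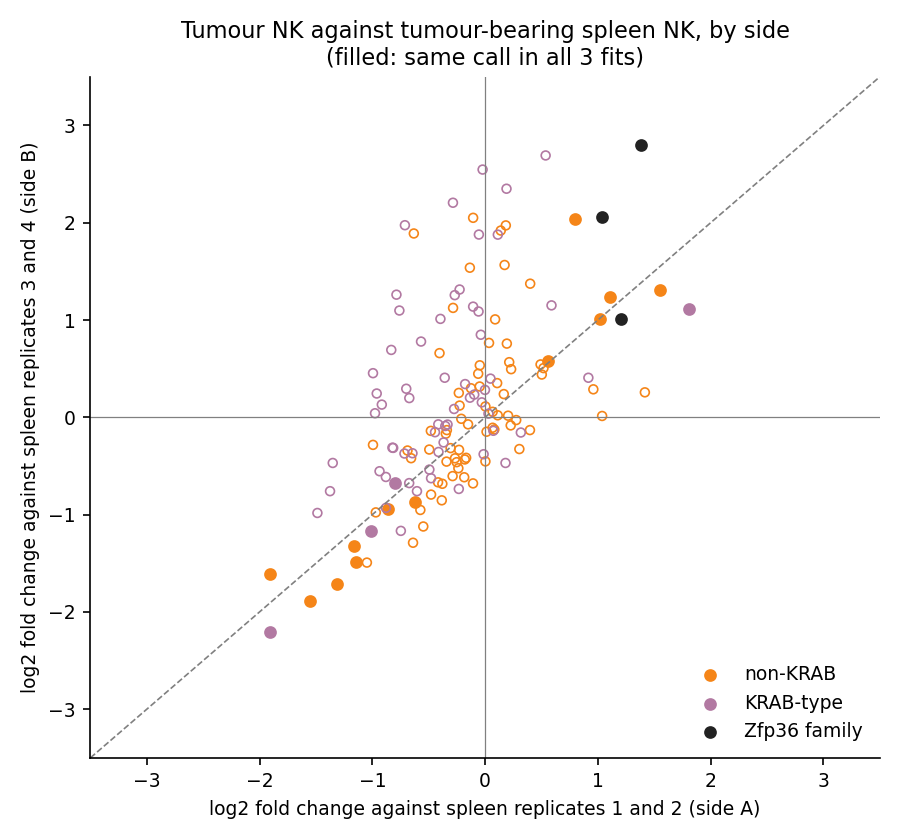
Log2 fold change of tumour NK cells against tumour-bearing spleen replicates 1 and 2 (side A, horizontal axis) and against replicates 3 and 4 (side B, vertical axis), 1 point per Zfp gene tested in both; filled points were called in the same direction in both fits and in that of all libraries. Zfp36l1, Zfp36l2 and Zfp672 are filled points well above the dashed line of equal values, at 2.80, 2.06 and 2.04 on the vertical axis, while many open KRAB-type points lie above 0 on the vertical axis alone.

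By Pearson correlation of log2 CPM over the 11 libraries, the members most like Zfp36 were Zfp296 (r = 0.895), Zfp703 (0.884) and Zfp512 (0.872). Over the 7 spleen libraries alone the values were 0.38, 0.50 and -0.28, so the likeness rested on the difference between tumour and spleen. Zfp296 was 13.0 to 23.8 CPM in tumours against 5.79 to 10.8 in tumour-bearing spleens (log2 fold change 1.03, SE 0.281, adjusted p = 0.00913).

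In the sCAF table, which was counted and scaled separately, 218 of 12235 genes were Zfp genes and 177 of them were also in the NK table. Zfp36 was the highest of these 177, at 826, 956 and 1102 CPM in the 3 libraries, whose totals were 2230475, 1318067 and 1331861 counts. Zfp36l1 stood at 201, 160 and 134 CPM, Zfp703 at 183, 146 and 196 CPM and Zfp36l2 at 13.0, 28.1 and 18.02 CPM. No test was made across the tables. The order within the Zfp36 family differed from that in tumour NK cells, where Zfp36l1 was the highest in all 4 libraries.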

How the data were processed

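The deposited files are 2 tables of raw counts per gene symbol, 1 for NK and 1 for sCAF libraries. Per the labels, libraries were 3' end libraries of polyA RNA; per the submitters' processing notes, bcl2fastq, STAR 2.4.2a, HTSeq and the mm10 genome were used. The header of each table lacks tabs in places, so tumour replicates 3 and 4 and sCAF replicate 1 were read from their header names in order.

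The 11 NK libraries entered 1 edgeR 4.0.16 quasi-likelihood fit (R 4.3.3) on the counts, with filterByExpr, TMM scaling and a term per group. P-values were adjusted over 8471 genes, and an adjusted p under 0.05 was a call. Values of log2 CPM, for correlations and the spleen sides, carried a prior count of 2. CPM were taken over the TMM-scaled totals of the tested genes. sCAF CPM used the table totals. The floor was 3 counts.

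The KRAB class was to come from RefSeq proteins. Instead, a HMMER 3.4 profile built from 82 seed windows of 40 residues searched translated GENCODE M21 coding sequences (E under 0.001). Of 244 members, 243 had GENCODE annotation. Near-identical copies were sought with BLAST 2.17.0 (at least 95% over 100 bases).

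Members, lists and classes were chosen with earlier results of these data known. The text names the Zfp36 genes, up to 10 rises and 10 falls per comparison among members of at least 50 mean counts, the 10 most abundant members, members of role lists, those called between spleens with the side as a block alone, and the 3 members most like Zfp36. Alternatives were upper-quartile scaling, DESeq2 1.42.0, no filter, a GC and length offset, a replicate block, single libraries left out, and each spleen side. The main fit was also run on simulated counts with a fixed dispersion and no split of the spleen libraries, so that run does not bear on the split. Replicate numbers are shared between groups, but not every same-numbered pair deviated together, so the block is an alternative.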

Additional observations from a re-analysis of the deposited data

Results flagged for a closer look

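In groups of 4 libraries, 4 of 96 sets of values for named Zfp genes had a highest or lowest library whose gap to the nearest other exceeded Dixon's 95% limit, a share that chance gives in about 1 of 20 sets. Zfp740 stood at 105.6 CPM in tumour-bearing spleen replicate 4, against 81.3 to 85.4 CPM in the other 3. Zfp335 stood at 102.7 CPM in the same library, against 58.0 to 64.8. Zfp148 stood at 12.84 CPM in tumour-bearing spleen replicate 2, against 7.62 to 8.24. Zfp263 stood at 36.89 CPM in tumour replicate 1, against 43.5 to 44.5. None of these genes was called in a comparison of all libraries.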

How the results depend on the processing

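No named gene's called change reversed under any alternative run. The count of members higher in tumour than in healthy spleen NK cells was 9, and was 5 with upper-quartile scaling, 14 with the replicate block and between 5 (without healthy replicate 2 or tumour replicate 1) and 19 (without healthy replicate 1) with 1 library left out. Over all 8471 genes the count was 1399 in the main fit, 1154 with upper-quartile scaling and 1469 with the replicate block. Against tumour-bearing replicates 3 and 4 alone, 39 members were higher and 24 lower in tumours, where 12 and 25 were so against all 4, and the median log2 fold change was -3e-04. With the spleen side, drawn from the same counts, as a block, 3 members were lower in tumour-bearing than in healthy spleens. The causes of these changes were not tested. With 1 library left out, members lower against tumour-bearing spleens numbered 17 to 31 and those higher 10 to 15, and members lower against healthy spleens 28 to 39. The medians ran from -0.23 to -0.06 against tumour-bearing spleens, from -0.37 to -0.22 against healthy spleens and from -0.27 to -0.05 between the spleens, where no member was called in any of these fits. The replicate block moved no other count over all members by over 1.5 times, but raised the higher KRAB-type members against healthy spleens from 1 to 3 and the non-KRAB from 5 to 8. Same-numbered tumour and tumour-bearing spleen libraries had correlations of -0.05, 0.29, 0.00 and 0.21, and 2 of these 4 tumour libraries correlated best with their own number. The correlations were 0.501, -0.353 and 0.348 between tumour-bearing and healthy spleens and -0.186, -0.195 and 0.044 between tumours and healthy spleens, so not every sample correlated best with its own number and the numbers were not taken as pairs. Among named genes, 5 calls were lost under upper-quartile scaling, 5 lost and 1 gained with DESeq2, 4 lost and 6 gained with the GC and length offset, 8 lost against tumour-bearing replicates 1 and 2 alone and 10 gained against replicates 3 and 4 alone, and 4 gained with the replicate block. Depth limits the family: 71 of 244 members did not pass the filter on low counts and were tested only without it.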
